A study of Mus musculus with 6 samples.

Results

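Creatine kinases move a phosphate group between ATP and creatine, so that phosphocreatine acts as a quick store of energy close to the sites where muscle spends ATP. Cytosolic isoforms sit beside the myofibrils and pumps, and mitochondrial isoforms charge creatine where ATP is made. Adenylate kinase and AMP deaminase work beside them: the first recovers ATP from ADP and leaves AMP, and the second removes that AMP. Creatine itself is made in 2 enzymatic steps, shared between organs, or is taken up from blood by a transporter. The 10 genes described here, of 28307 named on the array, are Ckm, Ckb, Ckmt1, Ckmt2, Ak1, Gatm, Gamt, Slc6a8, Ampd1 and Ampd3. They were chosen by gene name among the array's non-control spots, which gave 12 probes of the 41174 on the array, with 2 probes each for Ckb and Ampd3 and 1 for each other gene.

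The RNA came from satellite cells, the stem cells of skeletal muscle, taken from female mice during proliferation. Magic-F1 samples (n = 3) came from mice written as Magic-F1+/+, which carry an engineered factor based on hepatocyte growth factor that stimulates its receptor Met, and the series title presents the animals as having enlarged muscle. Control samples (n = 3) carry the term MLC3F in their titles, a term the labels do not explain. The sources used here do not give the promoter that drives the transgene, the age of the mice or the control strain. The series calls the triplicates biological, but all 6 source names carry the same ending, rep1, and only the titles number the samples, so it is not settled whether p-values measure the spread between mice or a technical one. Each sample had 1 Agilent array, read in a single colour.

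The 75th percentile of the spot signals lay between 341 and 356 on the Magic-F1 arrays and between 275 and 292 on the control arrays, and 49.2% to 52.0% of spots were well above background. No spot was saturated (0 on every array). Signals below are given in multiples of that 75th percentile of their own array, written P75, and each probe is compared only with itself. Probes were tested where all 3 arrays of 1 group or both flagged them as well above background, which held for 21190 probes. The test was limma with Benjamini-Hochberg adjustment over those 21190 probes at a threshold of 0.05. It called 18592 probes, or 87.7% (41.3% higher and 46.5% lower in Magic-F1), and the groups did not overlap at 89.1% of the tested probes. Scaling on the spiked-in transcripts instead of the P75 moved the median log2 change of all tested probes to 0.36, from −0.10, and the calls to 11122 higher and 7214 lower, against 8745 higher and 9847 lower.

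Markers of several cell types differed between the groups. Of 10 satellite cell and myoblast markers, 9 were tested and all 9 were lower in Magic-F1. Their summed signal was 26.1 to 27.0 P75 in Magic-F1 and 425 to 461 P75 in control. Pax7, the defining factor of satellite cells, was well above background on no Magic-F1 array and entered the test through control alone. Myf5 was well above background on no array of either group. All 15 differentiated muscle markers were lower (14 with scaling on the spiked-in transcripts), with sums of 560 to 598 P75 in Magic-F1 and 3348 to 3504 P75 in control. Macrophage markers were higher at 11 of 12 genes, the exception being Lyz2, whose probes disagreed. Their sums were 1383 to 1451 P75 in Magic-F1 and 422 to 450 P75 in control. Lyz2 was the brightest of them in control, at a mean log2 signal of 8.48, the next being Cd14 at 5.80. It therefore made up most of the control sum. Mrc1 was well above background on no control array and entered the test through Magic-F1 alone (log2 change 4.27, and 0.59 with normexp background correction). Adipocyte markers were higher at all 9 tested of 10 listed, with sums of 762 to 800 P75 in Magic-F1 and 147 to 150 P75 in control. Of these, Retn was well above background on no control array and entered the test through Magic-F1 alone (log2 change 4.90, and 1.70 with normexp). Neutrophil markers were lower at all 8 tested of 10 listed, with sums of 0.513 to 0.564 P75 in Magic-F1 and 586 to 630 P75 in control. S100a9, Camp, Ngp and Ltf were well above background on no Magic-F1 array and entered the test through control alone. Endothelial markers were lower at 6 and higher at 1 of 7 tested. Of the lower genes, Pecam1, Cdh5, Tie1 and Robo4 were well above background on no Magic-F1 array and entered the test through control alone. Kdr, the higher gene, had a log2 change of 0.64, and −0.033 with normexp background correction (adjusted p = 0.529). The median of the endothelial list was −4.55, and −0.97 with normexp. Fibroblast markers were lower at 5 and higher at 3 of 8 (lower at 1 and higher at 5 with scaling on the spiked-in transcripts). The part of these cell types in the results below was not tested, and in RNA of whole samples fewer cells of a type and less RNA per cell cannot be told apart.

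**Figure D1:**
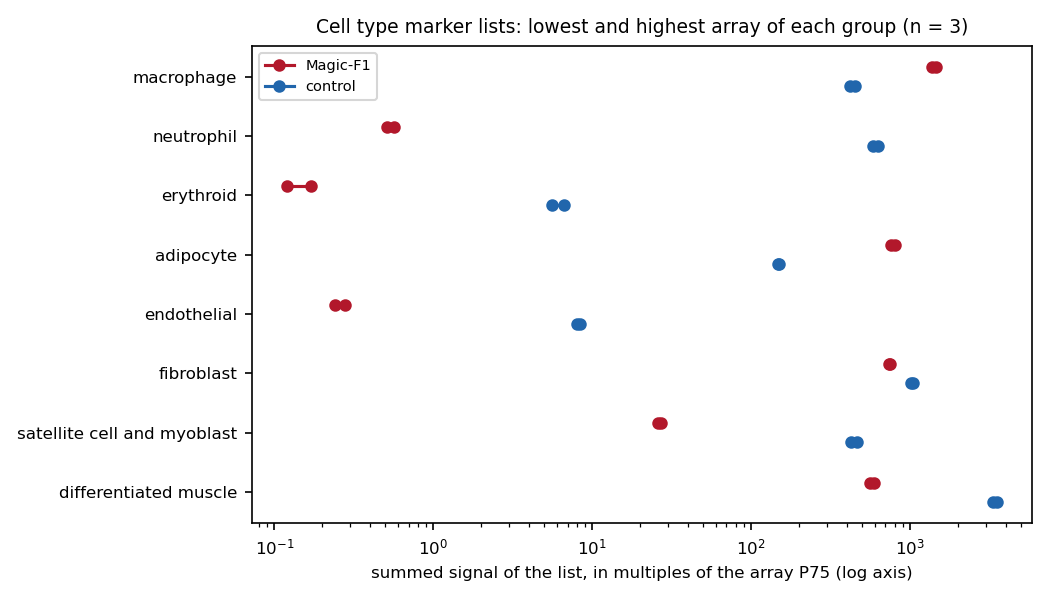
Summed signal of 8 lists of cell type markers, in multiples of the array P75 on a log axis, with Magic-F1 (red, upper) and control (blue, lower). The 2 joined points of each bar are the lowest and highest of 3 arrays. With P75 scaling the groups did not overlap for any of the 8 lists, nor at 89.1% of all tested probes. The sums were not taken with other scalings.

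The probes for Ckm and Ckb are shown first because the finding turns on them and because the 2 genes are close relatives. One of the 2 Ckb probes covers the same stretch of coding sequence as the Ckm probe. The Ckm probe lies at chr7:20002222-20004829 on the plus strand and the Ckb probe at chr12:112908459-112909105 on the minus strand, both on mm9 and both spanning an intron, since 60 bases of transcript cover 2608 and 647 bases of the genome. In the best ungapped alignment the probes shared 45 of 56 overlapping bases (80.4%), with 11 mismatches, which are in capitals. The sequences are those in the scanner files, 5′ to 3′.
Ckm: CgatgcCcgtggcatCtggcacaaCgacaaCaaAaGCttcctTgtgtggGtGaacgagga
Ckb: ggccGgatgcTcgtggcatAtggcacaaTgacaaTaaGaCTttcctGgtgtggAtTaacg
No other pair among the 12 member probes aligned as well, the next being Ak1 and Gamt with 25 identical bases of 44 (56.8%). Whether either probe also binds the other transcript was not tested. The other Ckb probe (chr12:112907696-112907755 on the minus strand) lies further along the transcript and has no such match.

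Ckm, the cytosolic creatine kinase of differentiated muscle, was the member with the largest fall. Its probe read 0.252, 0.262 and 0.260 P75 in the Magic-F1 samples, against 14.0, 13.5 and 14.1 P75 in the control samples. Every control sample stood far above every Magic-F1 sample, and the probe was well above background on all 6 arrays. The log2 change was −5.75 (SE 0.04), which is 53.7-fold lower in Magic-F1 (adjusted p = 2.03e-08). With normexp background correction the log2 change was −4.97.

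Ckb, the cytosolic creatine kinase named for brain and expressed in many tissues, went the other way on both of its probes. The first probe read 199, 210 and 210 P75 in Magic-F1 and 46.8, 47.1 and 48.3 P75 in control. The second, which aligns with the Ckm probe, read 54.8, 58.1 and 54.5 P75 in Magic-F1 and 14.6, 14.9 and 13.2 P75 in control. All Magic-F1 samples were above all control samples on both. The log2 changes were 2.12 (SE 0.05, adjusted p = 1.30e-07) and 1.97 (SE 0.06, adjusted p = 5.85e-07), 4.4-fold and 3.9-fold higher in Magic-F1.

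Within an array, the log2 ratio of the first Ckb probe to the Ckm probe does not depend on any scaling by a single factor per array. Set against its mean in control, it was 7.85, 7.88 and 7.88 in the Magic-F1 samples, with an SD of 0.03 among the 3 control samples. The shift of 7.87 is a 234-fold change in the balance of the 2 transcripts' signals. With normexp background it was 7.12. Quantile normalization, which does not use a single factor per array, gave log2 changes of 2.53 for this Ckb probe and −5.72 for Ckm. An exact permutation test over the 6 samples, 2-sided, gave p = 0.1 for this ratio and for the 2 other ratios computed. That is the smallest p that 3 against 3 allows. Each ratio set a probe higher in every Magic-F1 sample over a probe lower in every Magic-F1 sample. The groups therefore had to separate, so this p was fixed in advance and adds no support.

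The 2 mitochondrial creatine kinases were dim. Ckmt1, the ubiquitous isoform, read 0.0991, 0.104 and 0.108 P75 in Magic-F1, against 0.0388, 0.0305 and 0.0503 P75 in control, with 1 of 3 control arrays well above background. Its log2 change was 1.41 (SE 0.18, adjusted p = 0.000375), but with normexp background it was 0.08 (adjusted p = 0.177), so that the call rests on the background correction. Ckmt2, the isoform of striated muscle, read 0.216, 0.229 and 0.230 P75 in Magic-F1, against 0.296, 0.281 and 0.349 P75 in control. The groups did not overlap, and the log2 change was −0.45 (SE 0.09, adjusted p = 0.00339). With scaling on the spiked-in transcripts it was 0.0080 (adjusted p = 0.946), so no direction can be given for Ckmt2 that holds under every scaling.

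**Figure D2:**
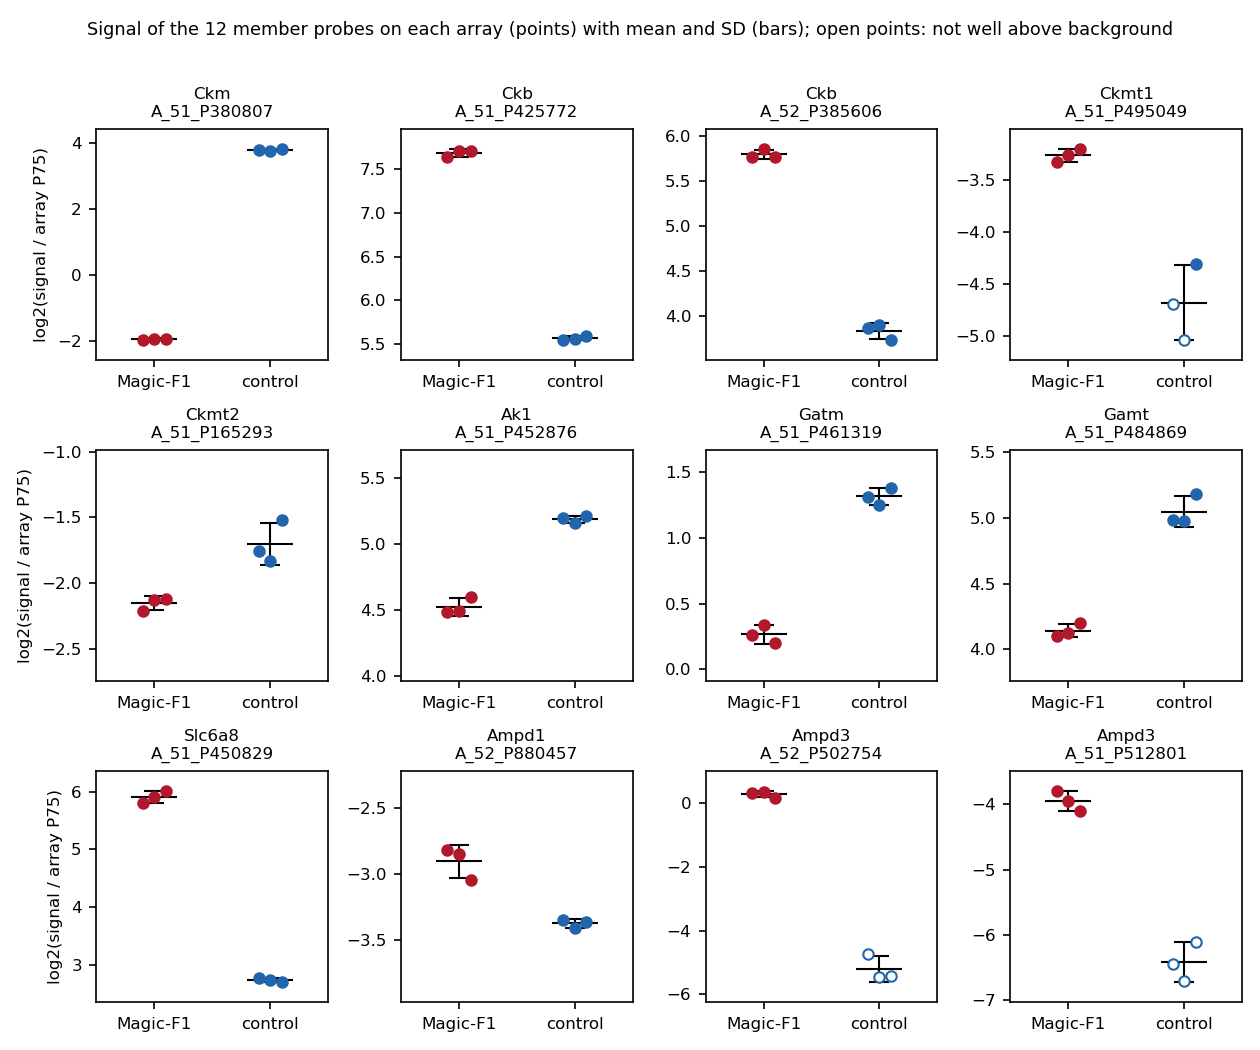
Signal of each of the 12 member probes on the 3 Magic-F1 arrays (red, left) and the 3 control arrays (blue, right), as log2 of the multiple of the array P75, with mean and SD; open points were not well above background. Each panel has its own vertical axis. In all 12 panels the groups do not overlap, which also held for 89.1% of all tested probes. Ckmt1 and both Ampd3 probes entered the test through the Magic-F1 arrays alone.

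Ak1, the cytosolic adenylate kinase of muscle and red cells, was lower in Magic-F1. It read 22.3, 22.4 and 24.3 P75 in Magic-F1 and 36.6, 35.8 and 37.1 P75 in control. The log2 change was −0.67 (SE 0.05, adjusted p = 3.35e-05), a 1.59-fold fall, and −0.21 (adjusted p = 0.0137) with scaling on the spiked-in transcripts.

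The RNA signals of both creatine synthesis enzymes were lower in Magic-F1, and that of the creatine transporter was higher. Gatm transfers the amidino group of arginine to glycine in the first step of creatine synthesis. It read 1.20, 1.27 and 1.15 P75 in Magic-F1 and 2.49, 2.38 and 2.61 P75 in control, a log2 change of −1.05 (SE 0.06, adjusted p = 7.78e-06). Gamt then adds a methyl group to form creatine. Its probe, spotted 10 times per array, read 17.2, 17.4 and 18.4 P75 in Magic-F1 and 31.6, 31.5 and 36.3 P75 in control, a log2 change of −0.90 (SE 0.07, adjusted p = 3.73e-05). Both enzymes were thus lower in every Magic-F1 sample than in any control sample. With scaling on the spiked-in transcripts the changes were −0.59 for Gatm and −0.45 for Gamt, and both stayed past the threshold.

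Slc6a8, the creatine transporter of the plasma membrane, was higher in Magic-F1. Its probe (chrX:70927598-70927657, plus strand, mm9) read 56.0, 60.2 and 64.6 P75 in Magic-F1 and 6.84, 6.65 and 6.47 P75 in control. The lowest Magic-F1 sample was above the highest control sample by far more than the spread within either group. The log2 change was 3.18 (SE 0.07, adjusted p = 1.16e-07), a 9.04-fold rise. The ratio of Slc6a8 to Gatm within an array was higher by 4.22 on the log2 scale in Magic-F1 (SD 0.15 among Magic-F1 and 0.09 among control samples), and the ratio of Slc6a8 to Gamt by 4.08 (SD 0.06 among Magic-F1 and 0.15 among control samples).

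**Figure D3:**
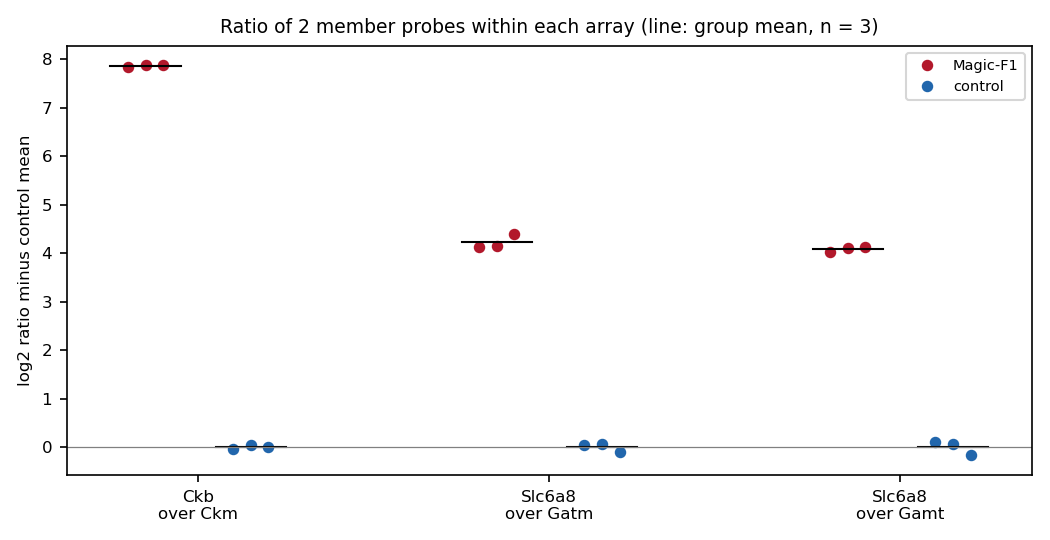
Log2 ratio of 2 member probes within each array, minus its mean in control, for Magic-F1 (red, left) and control (blue, right), with group means as lines. The Magic-F1 arrays lie near 7.87 for Ckb over Ckm, 4.22 for Slc6a8 over Gatm and 4.08 for Slc6a8 over Gamt, and the control arrays lie near 0.

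The AMP deaminases were measured by 3 probes, 2 of them for Ampd3. Ampd3, the isoform first known from red cells, was well above background on the Magic-F1 arrays only, and both of its probes entered the test through those arrays. The first probe (chr7:117954980-117955039, plus strand, mm9) read 1.25, 1.28 and 1.12 P75 in Magic-F1, against 0.0380, 0.0228 and 0.0232 P75 in control, where none of the 3 arrays was well above background. From processed signals the rise was at least 37.7-fold, a bound set by the dimmest signals well above background on the control arrays (adjusted p = 1.17e-06). With normexp background the log2 change was 2.66, against 5.48, a smaller change than that bound. The second Ampd3 probe read 0.0717, 0.0649 and 0.0581 P75 in Magic-F1 and 0.0115, 0.00955 and 0.0146 P75 in control, again with no control array well above background. Its rise from processed signals was at least 2.04-fold (adjusted p = 1.66e-05). Under normexp the log2 change was 0.14 (adjusted p = 0.0350), again smaller than the bound. The sizes differed between the probes, and their shared direction was set by the filter.

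Ampd1, the deaminase of skeletal muscle fibres, read 0.142, 0.138 and 0.121 P75 in Magic-F1 and 0.0979, 0.0938 and 0.0970 P75 in control. The log2 change was 0.47 (SE 0.07, adjusted p = 0.000957). With normexp background it was −0.022 (adjusted p = 0.650), so the direction is not settled by these data. The red cell markers Hba-a1 and Hbb-b1 were both lower in Magic-F1. Hbb-b1 was well above background on no Magic-F1 array and Hba-a1 on 2 of 3. Both entered the test through control alone, so the filter set their direction. The other 6 of 8 erythroid markers were not tested, and the list's sum was 0.120 to 0.170 P75 in Magic-F1 and 5.56 to 6.68 P75 in control.

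All 12 member probes passed the filter and all 12 were called, 7 higher and 5 lower in Magic-F1. Set beside the 87.7% called among all tested probes, that count says little about the family. Of the 12, 9 were well above background on all 6 arrays, 4 of them higher and 5 lower. The other 3 (Ckmt1 and both of Ampd3) passed the filter through the Magic-F1 arrays alone, where they are high, so their direction supports nothing. Over the 9 probes the median log2 change was −0.45, and its median size without sign was 1.05, against −0.10 and 1.06 for all tested probes. With the 3 others included the medians were 0.94 and 1.69, or 0.75 and 1.23 with both Ampd3 probes at their bounds. Changes of at least 2-fold were called for 8 member probes and 52.3% of all tested probes. Changes of at least 8-fold were called for 3 member probes (Ckm, Slc6a8 and the first Ampd3 probe) and 10.2% of all tested probes. The 8 include Ckmt1 and both Ampd3 probes, so these counts also rest in part on the filter. Among the 9 probes, only Ckm, both of Ckb, Gatm and Slc6a8 changed at least 2-fold, and only Ckm and Slc6a8 at least 8-fold.

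**Figure D4:**
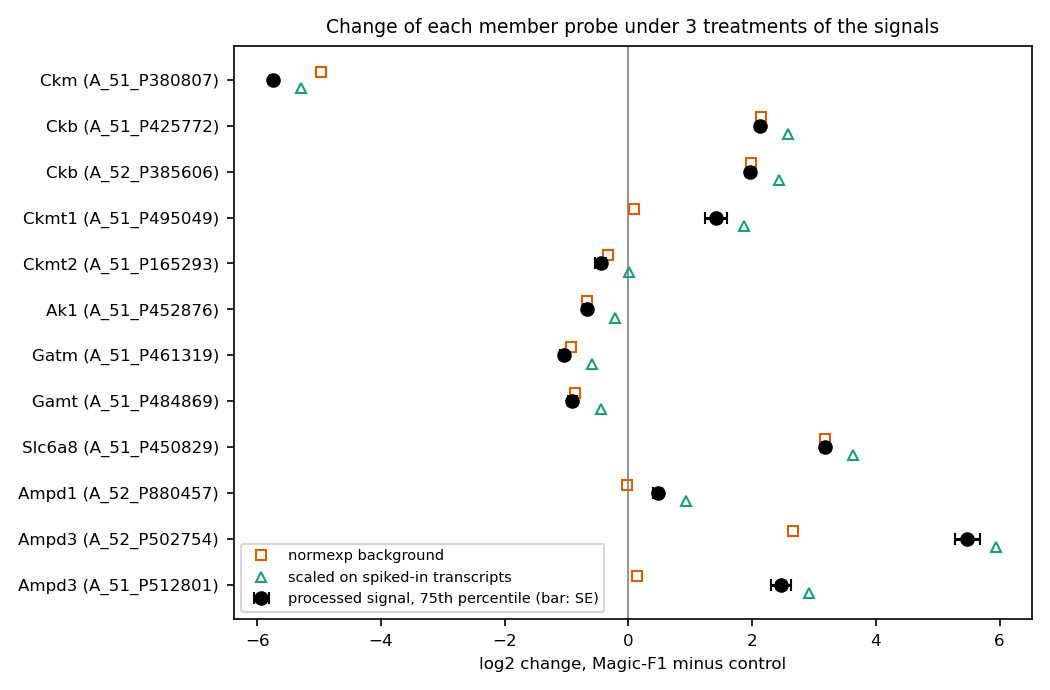
Log2 change, Magic-F1 minus control, of each member probe from processed signals scaled on the P75 (black, with SE), with normexp background (squares) and with scaling on spiked-in transcripts (triangles). Ckm, both Ckb probes, Slc6a8 and the first Ampd3 probe (A_52_P502754) stay far from 0 in all 3, while Ckmt1, Ckmt2, Ampd1 and the second Ampd3 probe come close to 0 in at least 1.

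Profiles most like those of Ckm and Ckb were sought over all tested probes, by Euclidean distance between mean-centred log2 signals on the 6 arrays. Nearest to Ckm were Emcn, Stac3, Serpinb2, Tmem40 and Ifi202b, at distances of 0.13 to 0.18, with log2 changes between −5.67 and −5.87. Stac3 encodes a protein of muscle excitation-contraction coupling, and Emcn is an endothelial sialomucin. Nearest to Ckb were Arrdc1, Dstyk, Dok2, Plbd2 and Grb2, at distances of 0.06 to 0.07, with log2 changes between 2.08 and 2.13. With normexp background the changes were −4.25 for Emcn, −4.60 for Serpinb2 and 0.39 for Dstyk. With 6 arrays in 2 groups this distance mostly ranks probes by the size of their difference.

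The muscle regulators Myod1 and Myog, which bind the E-box CANNTG, were both lower in Magic-F1, with log2 changes of −4.21 and −4.65. The 250 bases before the start of Ckm and of Ckb are therefore shown, from RefSeq on GRCm38.p6, with each E-box in capitals, searched on both strands. Promoters were found for 8 of the 10 members, and none was at hand for Ampd1 and Slc6a8. The Ckm window is chr7:19410844-19411093 on the plus strand and the Ckb window is chr12:111672339-111672588 on the minus strand.
Ckm: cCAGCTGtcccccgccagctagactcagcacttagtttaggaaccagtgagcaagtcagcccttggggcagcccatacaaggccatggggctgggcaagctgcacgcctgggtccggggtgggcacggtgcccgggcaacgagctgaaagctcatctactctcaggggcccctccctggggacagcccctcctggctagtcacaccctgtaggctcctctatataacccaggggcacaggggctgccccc
Ckb: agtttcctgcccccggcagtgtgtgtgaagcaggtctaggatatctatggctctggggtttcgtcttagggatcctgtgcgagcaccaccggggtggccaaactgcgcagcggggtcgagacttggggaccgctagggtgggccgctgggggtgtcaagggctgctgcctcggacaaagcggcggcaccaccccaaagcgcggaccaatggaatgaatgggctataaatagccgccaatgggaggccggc
The Ckm window holds 1 E-box, of the form CAGCTG, starting 249 bases before the start, and the Ckb window holds 0. Windows of the same length held at least 1 E-box in 66.2% of 32851 promoters and a CAGCTG in 13.0%. A match to the MEF2 motif was found in the Ckb window and in 2.92% of all promoters, and none in the Ckm window. The Ckb match, ctataaatag, lies close to the start and contains TATAAA, the form of a TATA box. Binding of any factor to it was not tested. The Ckmt2 window held 4 E-boxes, and 3 or more were found in 12.2% of all promoters. These matches describe the letters of the windows only.

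Around the members, 67 genes of 8 related lists were followed by their brightest tested probe. Of these, 62 were tested, 14 were higher, 42 were lower and 6 did not pass the threshold. Among all 14908 genes tested the same way, 88.3% were called, 40.6% higher and 47.7% lower. The median log2 change was −0.65 over the 62 genes and −0.15 over all genes.

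Adenylate kinases and AMP deaminases outside the members divided evenly, with 3 higher and 3 lower of 6 tested (3 and 2 with scaling on the spiked-in transcripts). Ak8 had the largest change, at 4.0, 3.83 and 4.16 P75 in Magic-F1 and 0.0436, 0.0626 and 0.0615 P75 in control (log2 change 6.18, adjusted p = 1.93e-07, and 4.08 with normexp background). Ak5 fell by 1.43 on the log2 scale. Ak4 had a log2 change of −0.86 (adjusted p = 0.0192) that depended on single arrays. It missed the threshold without control replicate 1 or 2 or without Magic-F1 replicate 1 or 3 (adjusted p 0.0517 to 0.0566), and with scaling on the spiked-in transcripts (−0.41, adjusted p = 0.153).

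Purine nucleotide cycle and AMP synthesis genes were mostly lower, at 6 of 8 tested, with 1 higher. Adsl, which acts in both the cycle and the synthesis pathway, read 4.67, 4.96 and 4.82 P75 in Magic-F1 and 17.5, 18.0 and 16.5 P75 in control (log2 change −1.85, adjusted p = 3.96e-07). Ppat, the committed step of purine synthesis, had a log2 change of −2.20 (−1.44 with normexp, and −1.01 on its other probe), Paics of −1.04 and Atic of −1.02, all past the threshold.

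Genes of AMP breakdown and purine salvage were lower at 6 of 10 tested and higher at 2. Nt5e, the ecto-enzyme that turns AMP into adenosine, was well above background on no Magic-F1 array and entered the test through the control arrays alone. Its direction, counted among the 6 lower, was therefore set by the filter. The fall was at least 3.82-fold (adjusted p = 3.99e-07), but with normexp background the log2 change was −0.79, a smaller change than that bound. Xdh, which forms uric acid, gave no single direction: its brightest probe had a log2 change of 3.03 (2.33 with normexp) and its other probe had a log2 change of −3.72. Nt5c3 had a log2 change of −1.44 and Adk of −0.58, and Adk was −0.12 (adjusted p = 0.120) with scaling on the spiked-in transcripts. Under that scaling the list had 4 genes higher and 2 lower.

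AMP-activated protein kinase, the sensor of rising AMP, had lower subunits and higher upstream kinases. The muscle-enriched subunit Prkag3 read 0.141, 0.144 and 0.147 P75 in Magic-F1 and 1.38, 1.43 and 1.14 P75 in control (log2 change −3.19, adjusted p = 4.08e-07, and −2.17 with normexp background). The catalytic subunit Prkaa2 had a log2 change of −1.73 (−0.71 with normexp). The upstream kinases Camkk2 and Stk11 rose by 1.73 and 1.35. In all, 6 of 8 tested were lower and 2 higher, and with scaling on the spiked-in transcripts 4 were lower and 2 higher.

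Nucleoside diphosphate kinases, which pass phosphate from ATP to other nucleotides, were lower at 6 of 7 genes. Nme2 read 150, 153 and 162 P75 in Magic-F1 and 422, 449 and 480 P75 in control (log2 change −1.54, adjusted p = 1.93e-06), Nme1 had a log2 change of −1.55 and Nme5, with 2 of 3 Magic-F1 arrays well above background, of −2.24 (−0.89 with normexp). Quantile normalization gave −0.92 for Nme2. Nme3 was the exception, with a rise of 1.63. Nme1 and Nme2 are close relatives, and whether their probes share signal was not tested. With scaling on the spiked-in transcripts 5 were lower and 1 higher.

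All 6 genes of ATP, ADP and phosphate exchange across mitochondrial membranes were lower. Slc25a4, the adenine nucleotide translocator of heart and muscle, read 152, 152 and 153 P75 in Magic-F1 and 464, 476 and 480 P75 in control (log2 change −1.63, adjusted p = 2.25e-07). Slc25a5, its widely expressed relative, had a log2 change of −1.27, the phosphate carrier Slc25a3 of −0.90 and the outer membrane channel Vdac3 of −1.52. The 2 Slc25a3 probes differed in size, the other giving −3.46. Quantile normalization gave −1.02 for Slc25a4 and −0.60 for Slc25a5. With scaling on the spiked-in transcripts 4 were lower and 1 higher.

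Genes that supply or use the methyl and guanidino substrates of creatine synthesis were lower at 6 of 9 tested and higher at 1. The list mixes suppliers with enzymes that use up arginine, so this count is not a measure of supply. Arg1, which breaks down arginine, read 0.0434, 0.0507 and 0.0405 P75 in Magic-F1 and 1.75, 1.77 and 1.80 P75 in control (log2 change −5.31, adjusted p = 6.01e-08, and −3.10 with normexp background). Log2 changes were −1.74 for Arg2 (−1.06 with normexp), −1.58 for Ass1, which makes the precursor of arginine, and −1.43 for Ahcy, which clears the product of methylation.

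Mitochondrial energy regulators went both ways, with 4 higher and 3 lower of 8 tested (5 and 2 with scaling on the spiked-in transcripts). Tfam, the mitochondrial transcription factor, fell by 1.72 on its brightest probe, while another of its probes was called in the opposite direction. Ppargc1a, a coactivator of mitochondrial genes, had a log2 change of −0.77, and −1.57 on its other probe. The fatty acid receptors Ppara and Ppard were dim, with log2 changes of 0.81 and 0.60 that became −0.056 and −0.057 with normexp background. Ppard also missed the threshold without control replicate 2 or 3 or without Magic-F1 replicate 2 or 3 (adjusted p 0.0613 to 0.0798).

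**Figure D5:**
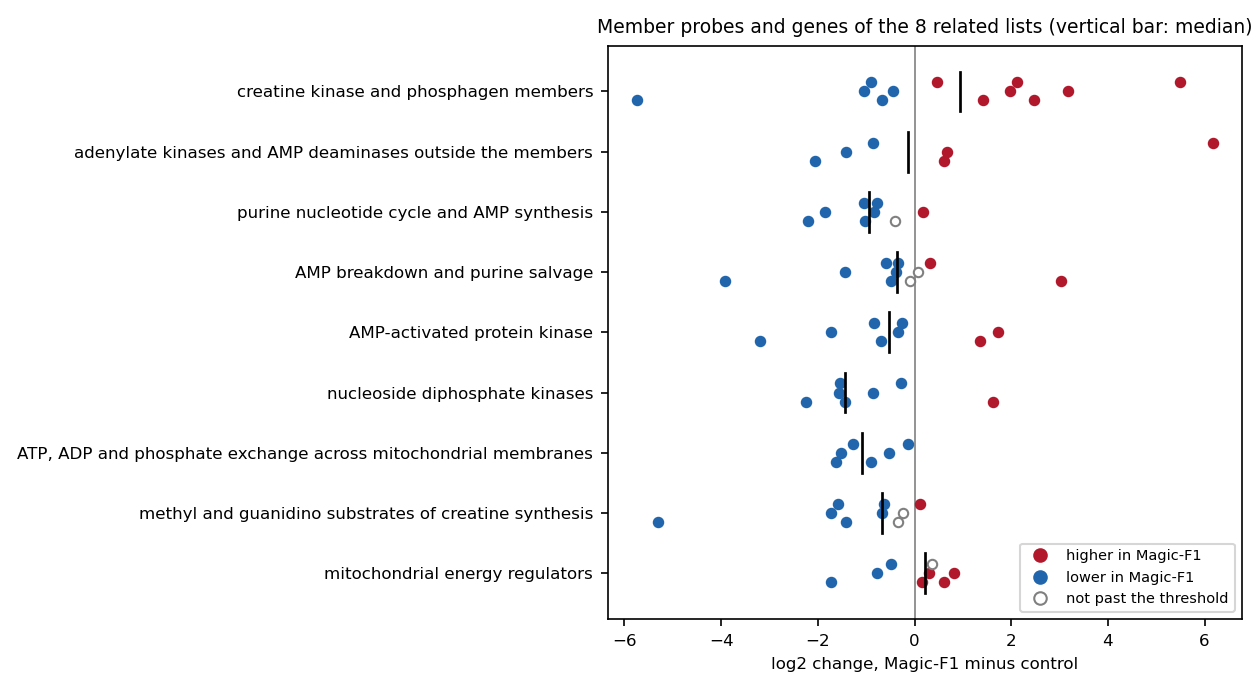
Log2 change, Magic-F1 minus control, of the 12 member probes and of the 62 tested genes of 8 related lists, red where higher, blue where lower and open where not past the threshold, with the median of each row as a vertical bar. The members spread from −5.75 to 5.48, and the 6 mitochondrial exchange genes all lie below 0.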

How the data were processed

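Cy3-labelled RNA of 6 samples was measured on Agilent arrays of design 014868. Spot intensity was extracted with Feature Extraction 10.5.1.1, per the file headers, as a background-subtracted processed signal with flags, not normalized between arrays. The authors also deposited a log2 table, which equals the log2 of the processed signal on 4 arrays and differs on both arrays numbered 1 (SD 0.457 for Magic-F1 and 0.473 for control); how those columns were made was not stated. Any other deposited value, such as a flag or a sequence, was used as the file gives it. Members and gene lists were chosen with earlier results of these data known.

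Control spots were left out, outlier spots (59 to 89 per array) set to missing, log2 processed signals reduced by the array's 75th percentile, and spots of a probe averaged. Probe positions are on mm9. Of 41174 probes, 25097 were named through RefSeq accessions and 16077 kept the file's name. Groups were compared with limma 3.58.1 in R 4.3.3 (lmFit, eBayes, group only, 2-sided, Benjamini-Hochberg at 0.05). Folds were taken from fitted log2 changes. A bound compares the bright group's mean with a dim-group mean in which each array contributes its lowest signal well above background, or the probe's own signal where that is higher. Named genes were every member, up to 4 genes per list (called first, then by size of change) and the 5 probes nearest to Ckm and to Ckb. The result of 1 list gene is not reported here. Alternatives covered background, scaling, filters, slide, replicate number, variance model, outlier flags, the deposited table and leaving out each array. Residual SDs had a median of 0.093 (log2), and 3 arrays per group limit the precision. The fit was tested on simulated data.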

Additional observations from a re-analysis of the deposited data

How the results depend on the processing

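Under 19 alternatives, 826 of 830 values of the 44 member probes and named list genes kept their direction. Alternatives in filter, variance model, slide block or replicate block cannot move the log2 change of a probe with no missing array. Their values were therefore fixed in advance and add no support. The exceptions were Ckmt2 at 0.0080 with spiked-in scaling, and Ampd1 at −0.022, Ppara at −0.056 and Ppard at −0.057 with normexp background; the cause was not tested. Member probes called higher numbered 5 with normexp and 4 when all 6 arrays had to be well above background, which removes Ckmt1 and both Ampd3 probes by construction, and 7 in all other alternatives with a test. Member probes called lower numbered 4 with spiked-in scaling (without Ckmt2) and 5 otherwise, genes of the related lists 49 to 56, and all probes 16044 to 19878. Leaving out each array in turn gave 7 member probes higher and 5 lower every time, and 18018 to 18682 probes called. Replicates 1 and 3 of both groups shared slide 1. Within slide 1 the log2 change was −5.78 for Ckm and 3.18 for Slc6a8, and on slide 2 −5.69 and 3.18. Deviations from the group means correlated at −0.0029, 0.11 and 0.07 between samples of the same number, so the numbers were not taken as pairs; with the replicate block 18548 probes were called, with 7 member probes higher and 5 lower. Dim probes depend most on the background correction.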
